A study of Mus musculus with 2 samples.

Results

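Cdh23, Pcdh15, Ush1c, Ush1g, Clrn1 and Adgrv1 encode proteins of the tip link and of Usher syndrome. They were described here from the gene annotation of a single-cell study of the mouse cochlea, by taking all its rows with these gene names. They made up 6 of the 27998 mouse genes of the annotation and 3794 of its 1511492 rows. The study compared 2 single-cell libraries from cochleae at postnatal day 8. The GFP library came from cochleae given the control virus Anc80-GFP, and the Ikzf2 library from cochleae given the virus Anc80-Ikzf2. Anc80 is an engineered adeno-associated virus capsid, and Ikzf2 encodes the transcription factor Helios. Both groups had the strain Myo15-Cre;Ai14, in which Cre recombinase driven by Myo15 in hair cells switches on the red fluorescent protein tdTomato, and cells with tdTomato were sorted before capture. There was 1 library per group. How many animals went into each is not given in the labels. The annotation has no value of either library, so the expression of these genes, the depth and the difference between GFP and Ikzf2 were not analysed here. Hair cell markers could not be checked for the same reason. All positions are on mouse assembly GRCm38.

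Hair cells turn sound into electrical signals with bundles of stereocilia, which are joined by extracellular filaments. The tip link runs from the tip of a stereocilium to its taller neighbour. Its upper part is made of cadherin 23, the product of Cdh23, and its lower part of protocadherin 15, the product of Pcdh15, which sits at the mechanotransduction channel. Harmonin (Ush1c) and Sans (Ush1g) are scaffold proteins inside the stereocilium that hold cadherin 23 and its partners. Clarin-1 (Clrn1) is a small protein that passes the membrane several times. Adgrv1 is a very large adhesion G protein-coupled receptor of the ankle links, which join the bases of stereocilia in developing bundles. In humans, mutations in the genes of all these proteins cause Usher syndrome, an inherited loss of hearing and vision.

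The 6 genes ranged in span from 6.85 kb for Ush1g to 1550 kb for Pcdh15. Their longest complete coding sequences ranged from 753 bases for Clrn1 to 18897 bases for Adgrv1. A coding sequence is called complete here when the annotation marks its start and stop codons and does not tag either end as missing. The median over the 6 genes was 218 kb of span, 4282.5 coding bases and 30.5 coding exons. Over the 21474 protein-coding genes with a complete coding transcript, the medians were 17.1 kb, 1191 bases and 6 coding exons. The 6 genes had 83 transcripts, of which 49 were protein-coding and 48 complete. Pcdh15 held 28 of those 48, and Ush1g held 1. The plot of gene models draws each gene from its first to its last base.

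**Figure D1:**
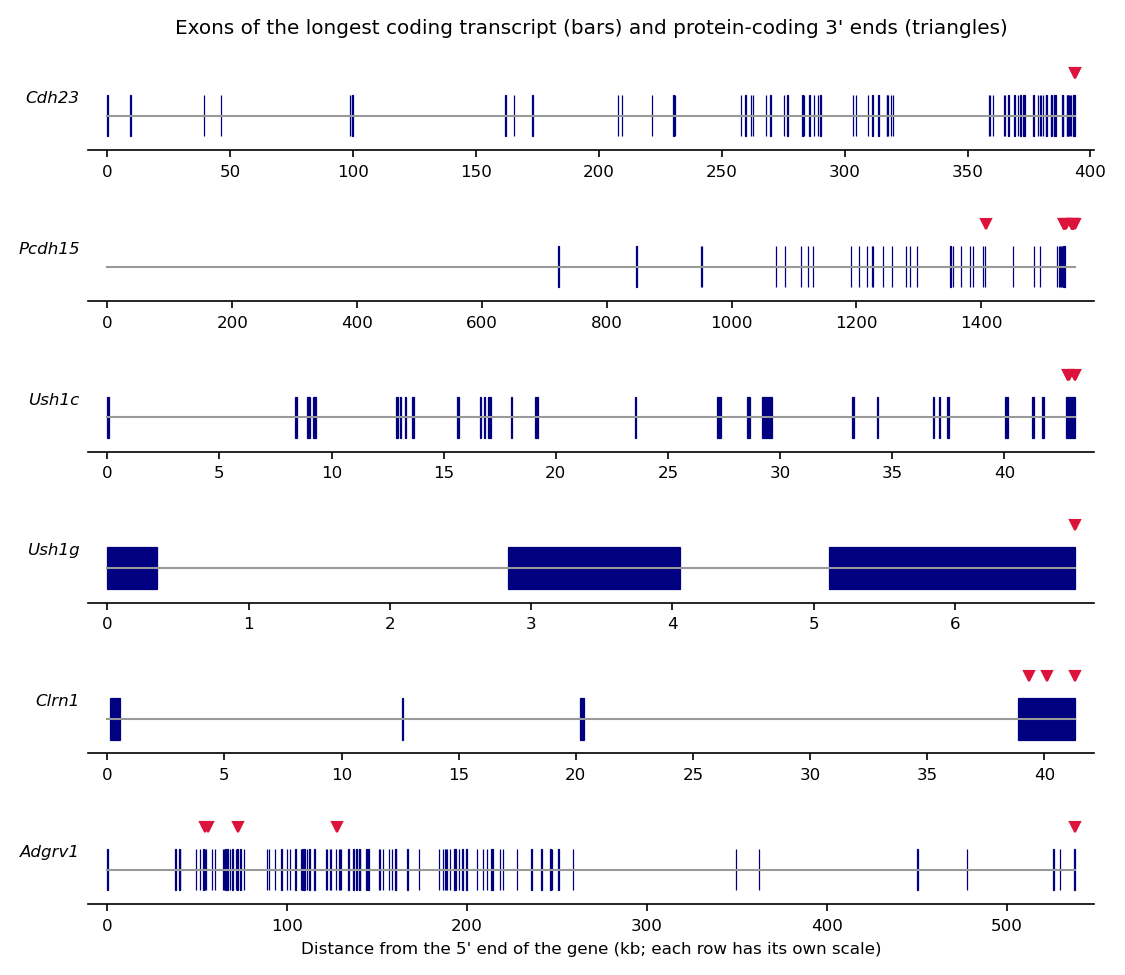
Exons of the longest coding transcript (bars) and 3' ends of the protein-coding transcripts (triangles) of the 6 genes, drawn against the distance in kb from the 5' end of the gene, each row on its own scale. Pcdh15 spans 1550 kb and Ush1g 6.85 kb. The 3' ends of Cdh23 coincide at this scale, while 4 of the 5 ends of Adgrv1 lie far upstream of its last exon.

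Cadherin 23 forms the upper part of the tip link through a long row of extracellular cadherin repeats. Cdh23 (ENSMUSG00000012819) occupied chromosome 10 from 60302748 to 60696490 on the minus strand, a span of 394 kb. Its longest coding transcript, Cdh23-201, had 71 exons, 69 of them coding, and 10065 coding bases, or 3354 codons without the stop. The annotation held 55 protein-coding genes with more coding exons and 99 with a longer coding sequence. The exons of Cdh23-201 made up 2.82% of the span of that transcript, and its longest intron was 62.1 kb. The gene had 5 complete coding transcripts, all with the same start and the same stop codon. Their coding lengths differed by little. Cdh23-201 had 10065 bases, Cdh23-001 had 10062, Cdh23-203 had 10059, Cdh23-002 had 9966 and Cdh23-202 had 9960, which is 99.0% of the longest. No short complete isoform of Cdh23 was thus annotated.

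The differences between these 5 transcripts lay in 4 coding exons that some transcripts carried and others skipped, and in a few shifted exon boundaries. The exon of 105 bases is shown because it separates the 3 longest from the 2 shortest coding sequences. It lay in Cdh23-201, Cdh23-001 and Cdh23-203 and was skipped by Cdh23-202 and Cdh23-002. It was exon 70 of the 71 exons of Cdh23-201, at chr10:60304424-60304528, in the stretch that encodes the cytoplasmic end of the protein. An alternative exon of the cytoplasmic part of Cdh23 is known from the inner ear. Cdh23-201 and Cdh23-202 had identical coding exons except for this one. The other 3 exons were of 3, 3 and 6 bases and are shown for their size. Here and below, sequences are those of the same transcripts in GENCODE release M21, which is on the same assembly. Capitals mark the exon, and lower case marks 15 coding bases of the transcript on each side, 5′ to 3′ on the minus strand.
Cdh23 exon of 105 bases in Cdh23-201: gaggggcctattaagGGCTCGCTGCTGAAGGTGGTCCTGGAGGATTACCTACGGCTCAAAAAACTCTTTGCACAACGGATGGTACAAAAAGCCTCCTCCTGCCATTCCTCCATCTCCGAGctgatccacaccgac
Cdh23 exon of 3 bases in Cdh23-201 and Cdh23-202: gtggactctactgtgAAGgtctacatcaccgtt
Cdh23 exon of 3 bases in Cdh23-203: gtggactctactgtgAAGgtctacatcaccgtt
Cdh23 exon of 6 bases in Cdh23-201 and Cdh23-202: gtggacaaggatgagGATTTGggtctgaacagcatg

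The 3-base exon of Cdh23-201 lay at chr10:60379457-60379459 and that of Cdh23-203 at chr10:60382496-60382498. The annotation places them apart, with the same letters, AAG, joined to the same neighbouring bases. Either one adds the same 3 bases to the coding sequence. Whether they are separate exons or the same exon placed at different positions was not tested. The counts here keep them apart. Cdh23-001 and Cdh23-002 carried neither. The 6-base exon lay at chr10:60475017-60475022. Only Cdh23-201 and Cdh23-202 carried it, and Cdh23-203 skipped it. Cdh23-001 did not carry it either, but had an exon of 195 bases where Cdh23-201 had one of 189. All 4 exons were divisible by 3 and thus kept the reading frame. Cdh23-201 and Cdh23-203 differed by an edit distance of 8 bases over their whole coding sequences and by 6 bases in length. Inner coding exons of at most 6 bases were rare. They occurred in 100 of 21990 protein-coding genes with a protein-coding transcript (0.455%), and in 2 of the 6 genes here, with 3 such exons in Cdh23 and 1 in Pcdh15. In both genes, every protein-coding transcript that carried such an exon had transcript support level 5, the lowest grade of evidence, described below. The share over all genes was not limited by support level.

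The 5 transcripts of Cdh23 ended at only 2 positions, 60302748 and 60302750, which are 2 bases apart. Their 3' UTRs were 624 or 626 bases long, so that the last 500 bases of every one were UTR. The 105-base exon lay 951 to 953 transcript bases from the 3' end, and the smaller exons 6375 bases or more. The transcripts with and without these exons therefore have the same last 500 bases, apart from 2 at the end. All 5 had transcript support level 5, the lowest of the scale on which GENCODE and Ensembl rate the cDNA evidence for a model, with 1 the best.

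Protocadherin 15 forms the lower part of the tip link, and it is known in isoforms that differ in their cytoplasmic ends. Pcdh15 (ENSMUSG00000052613) occupied chromosome 10 from 73099342 to 74649737 on the plus strand. Its span of 1550 kb was exceeded by 13 protein-coding genes. Its longest coding transcript, Pcdh15-001, had 35 exons, 34 of them coding, 5832 coding bases and 1943 codons. That transcript began 723 kb downstream of the 5' end of the gene, which other transcripts set. The longest intron of Pcdh15-001 was 125 kb. No protein-coding gene of the annotation had more complete coding transcripts than the 28 of Pcdh15. They had 25 distinct coding lengths, 3 start codons and 6 stop codons, and 26 of the 28 began at the same start codon at 73947056. Of the 29 protein-coding transcripts, 11 had support level 1 and 18, Pcdh15-001 among them, level 5. Those at level 1 alone gave 10 distinct coding lengths, 4 distinct 3' ends and 15 skipped coding exons. Pcdh15-009 and Pcdh15-036 had identical coding sequences and differed in their 3' ends.

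The 6 stop codons sorted the Pcdh15 transcripts into classes with different coding ends. The last 60 coding bases of a transcript of each class are shown because the classes encode different C-terminal ends. Those shown for stops 1 and 4 had support level 1, and the others level 5. The stop codon is in capitals, and each sequence is given 5′ to 3′ on the plus strand of chromosome 10, with the position of the last base of the stop codon.
Pcdh15 stop 1 at 74506598, Pcdh15-019: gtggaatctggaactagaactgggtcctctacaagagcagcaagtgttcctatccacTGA
Pcdh15 stop 2 at 74631954, Pcdh15-001: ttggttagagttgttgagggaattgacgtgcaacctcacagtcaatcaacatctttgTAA
Pcdh15 stop 3 at 74643367, Pcdh15-030: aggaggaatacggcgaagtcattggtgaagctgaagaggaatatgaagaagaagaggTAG
Pcdh15 stop 4 at 74643383, Pcdh15-011: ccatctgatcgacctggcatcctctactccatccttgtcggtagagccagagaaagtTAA
Pcdh15 stop 5 at 74644218, Pcdh15-004: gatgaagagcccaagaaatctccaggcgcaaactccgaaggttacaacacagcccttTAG
Pcdh15 stop 6 at 74646072, Pcdh15-039: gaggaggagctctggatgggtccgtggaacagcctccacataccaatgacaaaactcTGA

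Stop 1 was used by 3 transcripts, of 1953 to 3531 coding bases, which ended 142 kb before the outermost 3' end of the gene. Their last coding exon held 143 coding bases that are in no exon of Pcdh15-001. Stop 2 was used by 11 transcripts, 10 of them complete, and the class held the longest coding sequences. Its last coding exon had 1444 bases and made up 24.8% of the coding sequence of Pcdh15-001. Stop 5 was used by 6 transcripts of 1953 to 5373 bases, with 855 coding bases in the last exon. Stop 6 was used by 6 transcripts of 1248 to 5145 bases, with 552 coding bases in the last exon. Stops 1, 2, 5 and 6 thus lay in 4 different last exons.

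Stops 3, 4 and 5 lay in 1 and the same exon, which begins at 74643364. Transcripts entered it in 3 reading frames, with 2, 1 or 0 bases of an unfinished codon carried over from the exons before. In the frame of stop 5 the exon gave 855 coding bases, the stop codon included. With the stop codon included, Pcdh15-011 read 20 coding bases of it, up to stop 4, and Pcdh15-021 and Pcdh15-030 read 4, up to stop 3. These last 2 transcripts both carried an exon of 71 bases, which is not divisible by 3. Pcdh15-039 and Pcdh15-005 carried the same 71-base exon together with one of 19 bases, and ended at stop 6. The 7 transcripts that ended at 74644727 therefore had the same last exon and 3 different stop codons.

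The short isoforms of Pcdh15 had the shared start codon and lacked most of the middle exons, or began late. A transcript counts as short here when its coding sequence is under 50% of the longest of its gene. Pcdh15-011 was the shortest, with 9 coding exons and 1005 bases, or 17.2% of Pcdh15-001. Pcdh15-005 had 1248 bases (21.4%) from a start codon at 74594184, deep in the gene. Pcdh15-012 and Pcdh15-017 had 1953 bases each (33.5%), with different stops, and Pcdh15-013 had 2160 bases (37.0%), the value just inside the limit. The value just outside it was the 50.5% of Pcdh15-014. A short isoform was found in 2 of the 6 genes, Pcdh15 and Adgrv1, against 6.71% of the 21474 protein-coding genes with a complete coding transcript. Among the 9383 genes with at least 2 complete coding transcripts, the share was 15.3%.

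**Figure D2:**
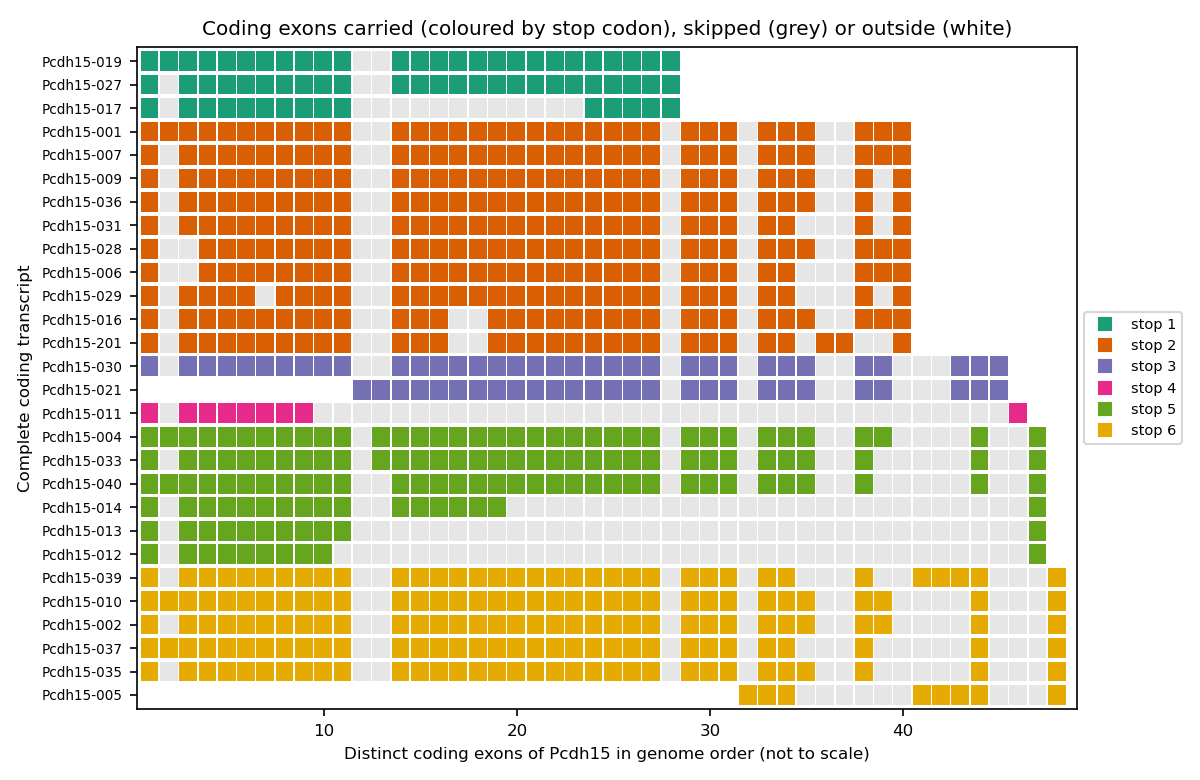
The 28 complete coding transcripts of Pcdh15 (rows) and the 48 distinct coding exons they use (columns, in genome order and not to scale), where colour marks a carried exon and the stop codon of the transcript, grey an exon not carried within its coding range, and white an exon outside it. Grey includes exons that the stricter counts of skipped exons in the text leave out. No exon is carried by all 28 transcripts, and the 3 transcripts with stop 1 end well before the others.

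Skipped coding exons were counted where a coding exon of a transcript lay in an intron of another and both transcripts shared the coding exon ends on either side of that intron. Pcdh15 had 32, of 6 to 306 bases, and 2 protein-coding genes of the annotation had more. Of these, 20 were divisible by 3. An exon is called skipped alone here when some carrier had it as the only coding exon between the neighbours that a skipping transcript joined. This held in 10 cases, and 8 of these were divisible by 3. The skipping transcript could still lack exons of other carriers. Pcdh15-011, the only one to skip the exon of 113 bases at chr10:74303094-74303206, lacked most later exons too. Over all protein-coding genes, 71.0% of 7256 skipped coding exons were divisible by 3. Those of at most 21 bases that some transcripts skipped alone are shown. The 71-base exon, carried by transcripts with stop 3 or stop 6, is shown too. Capitals mark the exon, on the plus strand, between 15 coding bases of its neighbours in the named transcript.
Pcdh15 exon of 15 bases in Pcdh15-001, chr10:74051093-74051107: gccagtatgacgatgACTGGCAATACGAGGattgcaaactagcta
Pcdh15 exon of 21 bases in Pcdh15-004, chr10:74321438-74321458: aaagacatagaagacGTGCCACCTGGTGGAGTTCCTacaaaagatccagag
Pcdh15 exon of 9 bases in Pcdh15-001, chr10:74626147-74626155: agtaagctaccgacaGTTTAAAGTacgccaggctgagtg
Pcdh15 exon of 6 bases in Pcdh15-001, chr10:74628928-74628933: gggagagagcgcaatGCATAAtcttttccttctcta
Pcdh15 exon of 71 bases in Pcdh15-039, chr10:74641343-74641413: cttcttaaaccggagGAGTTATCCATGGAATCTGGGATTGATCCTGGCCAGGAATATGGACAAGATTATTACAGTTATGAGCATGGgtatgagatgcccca

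The 15-base exon was carried by 6 protein-coding transcripts and skipped by 20. It was the only coding difference between Pcdh15-001 and Pcdh15-007, of 5832 and 5817 bases. The 21-base exon was carried by 3 transcripts and skipped by 24. The 9-base exon was carried by 15 and skipped by 9, and the 6-base exon was carried by 10 and skipped by 13. Transcripts that lacked an exon but did not share the coding exon ends on either side are not counted as skipping it. Pcdh15-009, of 5811 bases, differed from Pcdh15-007 by the 6-base exon alone, and Pcdh15-031, of 5802 bases, from Pcdh15-009 by the 9-base exon alone. These counts are of annotated models and say nothing of how often a cell uses an exon.

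Pcdh15 had 14 distinct protein-coding 3' ends, and 23 protein-coding genes had more. The innermost, at 74507600, belonged to the 3 transcripts with stop 1, and the outermost, at 74649737, to Pcdh15-002, whose 3' UTR was 3665 bases long. Stop 2 alone had 5 ends, with 3' UTRs from 582 bases in Pcdh15-036 to 2811 in Pcdh15-201. Pcdh15-040 and Pcdh15-037 ended at the stop codon itself, with no annotated 3' UTR. The last 500 bases of the 29 protein-coding transcripts fell into 7 groups that did not overlap each other. Of these groups, 6 had a single stop codon each. The remaining group held 9 transcripts of 1005 to 5373 coding bases with stops 3, 4 and 5. None of the 32 skipped exons lay within the last 500 bases of a transcript that carried it.

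Harmonin, the product of Ush1c, is a scaffold protein with PDZ domains that binds cadherin 23 and Sans, and it is known in longer and shorter classes of isoforms. Ush1c (ENSMUSG00000030838) occupied chromosome 7 from 46195350 to 46238503 on the minus strand, a span of 43.2 kb. Its longest coding transcript, Ush1c-001, had 27 exons, all coding, with 2733 bases and 910 codons. The 5 complete coding transcripts fell into long and shorter forms. Ush1c-001 and Ush1c-003 had 2733 and 2676 bases. Ush1c-004, Ush1c-007 and Ush1c-008 had 1647, 1590 and 1554 bases, or 60.3%, 58.2% and 56.9% of the longest. The shortest of these was thus above the 50% limit.

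The long forms carried a run of 6 coding exons of 50, 153, 117, 483, 120 and 51 bases, where Ush1c-004 had a single exon of 62 bases. The coding exons of Ush1c-004 and Ush1c-007 differed only by an exon of 57 bases at chr7:46221641-46221697, skipped by Ush1c-007. Ush1c-008 carried that exon and began at a later start codon, at 46230074 against 46238464 for the other 4. Ush1c-001 and Ush1c-003 shared 25 identical coding exons of 27. The next-to-last coding exon was 109 bases long in Ush1c-001 and 117 bases in Ush1c-003, and Ush1c-004, Ush1c-007 and Ush1c-008 skipped it. The coding ends are shown because all 5 transcripts share the start of the last exon and differ in how they read it. Capitals mark the last coding exon, the stop codon at its end included, after 30 bases of the exon before it, on the minus strand.
Ush1c-001, chr7:46195657-46195734: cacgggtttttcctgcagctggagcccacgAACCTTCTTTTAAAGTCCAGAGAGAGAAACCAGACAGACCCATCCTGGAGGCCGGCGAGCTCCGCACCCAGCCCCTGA
Ush1c-003, chr7:46195722-46195734: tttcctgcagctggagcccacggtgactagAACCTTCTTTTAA
Ush1c-004, chr7:46195722-46195734: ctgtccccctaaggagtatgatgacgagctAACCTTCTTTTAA

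The 8 bases by which the next-to-last exon of Ush1c-003 was longer read GTGACTAG. In Ush1c-001 the last exon began a new codon and gave 78 coding bases. In the other 4 transcripts it was entered after 2 bases of an unfinished codon and gave 13, ending at a stop codon 65 bases upstream. Ush1c-004, which skips the exon before, thus had the same coding end as Ush1c-003. The exon skipped alone by Ush1c-007 is shown for its size in the same way, with 15 bases of each neighbour in lower case.
Ush1c exon of 57 bases in Ush1c-001, chr7:46221641-46221697: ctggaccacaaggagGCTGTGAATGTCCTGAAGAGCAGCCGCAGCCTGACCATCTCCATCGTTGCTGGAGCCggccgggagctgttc

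Skipped coding exons occurred in 4 of the 6 genes, against 16.6% of 21990 protein-coding genes and 32.0% of the 11422 genes with at least 2 protein-coding transcripts. Ush1c had 3, of which the 109-base and the 117-base exon are forms of the same exon. These 2 forms lay 378 and 104 bases from the 3' end, within the last 500 bases of the transcripts that carried them. The 57-base exon lay at least 842 bases from it. The 5 protein-coding 3' ends of Ush1c spanned 301 bases, with 3' UTRs of 71 to 372 bases. All 5 transcripts, with both stop codons, therefore shared overlapping last 500 bases. Support was at level 1 for Ush1c-001, Ush1c-003 and Ush1c-004 and at level 5 for the other 2.

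Sans, the product of Ush1g, is a scaffold protein with ankyrin repeats and a SAM domain that binds harmonin. Ush1g (ENSMUSG00000045288) occupied chromosome 11 from 115315192 to 115322041 on the minus strand. It was the most compact of the 6 genes, with a span of 6.85 kb and exons over 48.3% of it. It had 1 transcript, Ush1g-001, with 3 exons, 1386 coding bases and 461 codons. The second exon held 1218 coding bases, or 87.9% of the coding sequence, and the first held 164. The last exon held only 4 coding bases, the stop codon and 1 base before it, followed by a 3' UTR of 1735 bases. The coding end is shown beside that of Cdh23, with the stop codons in capitals, on the minus strand of each chromosome.
Ush1g stop at 115316927: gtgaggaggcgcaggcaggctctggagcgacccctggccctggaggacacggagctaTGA
Cdh23 stop at 60303374: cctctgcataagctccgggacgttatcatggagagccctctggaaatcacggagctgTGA

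The 12 coding bases before the stop codon of Ush1g and Cdh23 matched at 9 positions. Over the other pairs of coding ends compared in the same way, 1 to 8 positions matched. This pair was singled out after the values were seen.

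Clarin-1 is a small membrane protein of hair cells and of the retina. Clrn1 (ENSMUSG00000043850) occupied chromosome 3 from 58844028 to 58885340 on the minus strand, a span of 41.3 kb. It had the shortest coding sequence of the 6 genes, and 16323 protein-coding genes had a longer one. Its 3 complete coding transcripts had the same start and stop codon. Clrn1-002 had 4 coding exons and 753 bases, Clrn1-001 had 3 and 699 bases, and Clrn1-003 had 2 and 519 bases, or 68.9% of the longest. They formed a series in which a further inner exon was left out each time. Clrn1-001 lacked an exon of 54 bases and Clrn1-003 also lacked one of 180 bases, both divisible by 3. The 2 exons are shown in capitals with 15 bases of their neighbours in Clrn1-002, on the minus strand.
Clrn1 exon of 54 bases, chr3:58872701-58872754: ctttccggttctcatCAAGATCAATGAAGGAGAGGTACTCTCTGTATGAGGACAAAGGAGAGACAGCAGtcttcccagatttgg
Clrn1 exon of 180 bases, chr3:58864972-58865151: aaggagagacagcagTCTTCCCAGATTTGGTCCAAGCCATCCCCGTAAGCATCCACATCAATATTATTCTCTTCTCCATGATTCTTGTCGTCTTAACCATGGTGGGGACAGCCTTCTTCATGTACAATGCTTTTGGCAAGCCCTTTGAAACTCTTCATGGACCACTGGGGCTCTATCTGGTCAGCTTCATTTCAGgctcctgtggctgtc
Clrn1 stop at 58846186, shared by the 3 transcripts, last 60 coding bases with the stop codon in capitals: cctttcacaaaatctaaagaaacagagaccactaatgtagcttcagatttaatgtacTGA

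Each Clrn1 isoform had a 3' end of its own. Clrn1-002 had the outermost end and a 3' UTR of 2158 bases. Clrn1-003 ended 1187 bases earlier, with a 3' UTR of 971 bases, and Clrn1-001 ended 1953 bases earlier, with one of 205 bases. The last 500 bases of the 3 transcripts did not overlap each other. The 180-base exon lay 471 bases from the 3' end of Clrn1-001 and 2424 from that of Clrn1-002. All 3 had support level 1. In Clrn1, then, 1 stop codon went with 3 ends, whereas in Ush1c 2 stop codons went with ends within 301 bases.

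Adgrv1 encodes the largest protein of the 6, a receptor with a long extracellular stretch of Calx-beta repeats. The gene (ENSMUSG00000069170) occupied chromosome 13 from 81095068 to 81633154 on the minus strand, a span of 538 kb, which 190 protein-coding genes exceeded. Adgrv1-001 had 90 exons, all coding, 18897 coding bases and 6298 codons. Its largest coding exon had 1103 bases, or 5.84% of the coding sequence, so that no single exon dominated it as in Ush1g. Only 8 genes had a longer coding sequence, among them Ttn, the giant muscle protein titin, with 105642 bases, and Syne2, a large protein of the nuclear envelope, with 20625. Of the 88 inner coding exons of Adgrv1-001, 32 were divisible by 3 (36.4%). The share was 55.2% of 67 in Cdh23, 65.6% of 32 in Pcdh15, 44.0% of 25 in Ush1c and 40.8% over all protein-coding genes. Among these 4 genes with many exons, Cdh23 and Pcdh15 thus had the higher shares. Over the 22 other genes of the hair bundle described below, the share was 37.7% of 469 inner coding exons. Whether the share goes with the tip link was not tested.

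Adgrv1 had 6 complete coding transcripts, and each had another coding length. After the 18897 bases of Adgrv1-001 came Adgrv1-005 with 6717 bases (35.5%), Adgrv1-002 with 3657 (19.4%), Adgrv1-004 with 1851 (9.80%) and Adgrv1-003 with 1251 (6.62%). Adgrv1-010 was the shortest, with 957 bases (5.06%). All 5 were short by the 50% limit, and the nearest to it was the 35.5% of Adgrv1-005. Adgrv1 had no skipped coding exon. Its isoforms differed in where they began and ended.

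Adgrv1-003, Adgrv1-004 and Adgrv1-002 began at the start codon of Adgrv1-001 and stopped early, so that they cover the N-terminal end. Adgrv1-005 began at 81570565 and stopped early too. In each of these 4 the last exon began like an exon of Adgrv1-001 and ran on past its end into the intron, where the stop codon followed. The last coding exon of Adgrv1-003 had 566 bases in common with Adgrv1-001 and 16 beyond it. The bases in common and beyond were 330 and 9 in Adgrv1-004, 215 and 23 in Adgrv1-002, and 94 and 65 in Adgrv1-005. Adgrv1-010 was the opposite case. It began at 81283367, carried 6 identical coding exons and 12 bases of another, and used the stop codon of Adgrv1-001, so that it covers the C-terminal end. The coding ends are shown except for stop 2, since Adgrv1-004 had another version in M21. The stop codon is in capitals, and the strand is the minus strand of chromosome 13.
Adgrv1 stop 1 at 81579269, Adgrv1-003: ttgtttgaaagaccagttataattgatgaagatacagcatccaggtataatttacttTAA
Adgrv1 stop 3 at 81560627, Adgrv1-002: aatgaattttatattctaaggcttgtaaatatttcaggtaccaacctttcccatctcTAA
Adgrv1 stop 4 at 81506034, Adgrv1-005: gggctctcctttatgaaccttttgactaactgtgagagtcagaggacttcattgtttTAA
Adgrv1 stop 5 at 81095383, Adgrv1-001 and Adgrv1-010: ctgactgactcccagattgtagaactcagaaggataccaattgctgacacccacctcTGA

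The 3' ends of Adgrv1 followed its stop codons. Adgrv1-001 and Adgrv1-010 ended at the outermost position, 81095068. The ends of Adgrv1-005, Adgrv1-002, Adgrv1-004 and Adgrv1-003 lay 411, 466, 482 and 484 kb before it. The 5 ends gave 5 groups of last 500 bases that did not overlap. The outermost group held the longest and the shortest coding sequence together, while each early end had 1 transcript. The 3' UTRs were 55 to 628 bases long. All 6 transcripts had support level 1, in contrast to Cdh23, whose 5 were all at level 5, and to Pcdh15, with 11 of 29 at level 1.

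**Figure D3:**
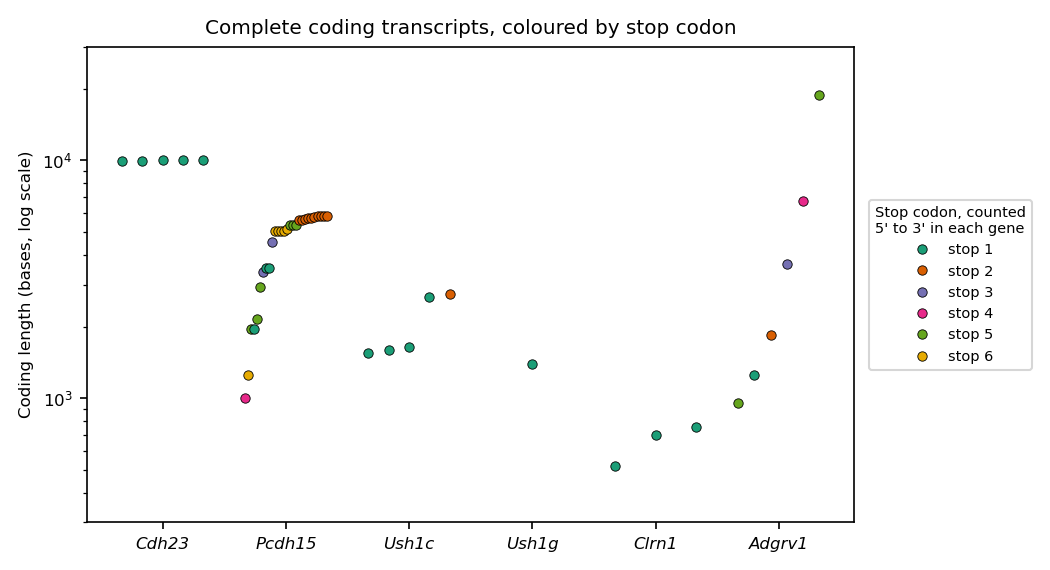
Coding length in bases, on a log scale, of the 48 complete coding transcripts of the 6 genes (points, ordered by length within a gene), coloured by the stop codon they use, counted 5' to 3' within each gene. The 5 transcripts of Cdh23 lie between 9960 and 10065 bases, while those of Adgrv1 run from 957 to 18897.

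Alternative stop codons were found in 3 of the 6 genes, with 6 in Pcdh15, 5 in Adgrv1 and 2 in Ush1c. At least 2 stop codon positions occurred in 3180 of the 21474 protein-coding genes with a complete coding transcript (14.8%). All 3180 were among the 9383 genes with at least 2 complete coding transcripts, since 1 such transcript cannot give 2 stop codons. Set against those 9383 genes, the share is higher than 14.8%. Protein-coding 3' ends over 100 bases apart were found in 4 of the 6 genes, Pcdh15, Ush1c, Clrn1 and Adgrv1. The share over protein-coding genes was 40.4% of 21990, and 77.8% of the 11422 with at least 2 protein-coding transcripts. The count of 4 is therefore near the share among genes with several transcripts, and nothing particular to these genes is read from it. Cdh23 had 2 ends within 2 bases and Ush1g had 1 end.

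**Figure D4:**
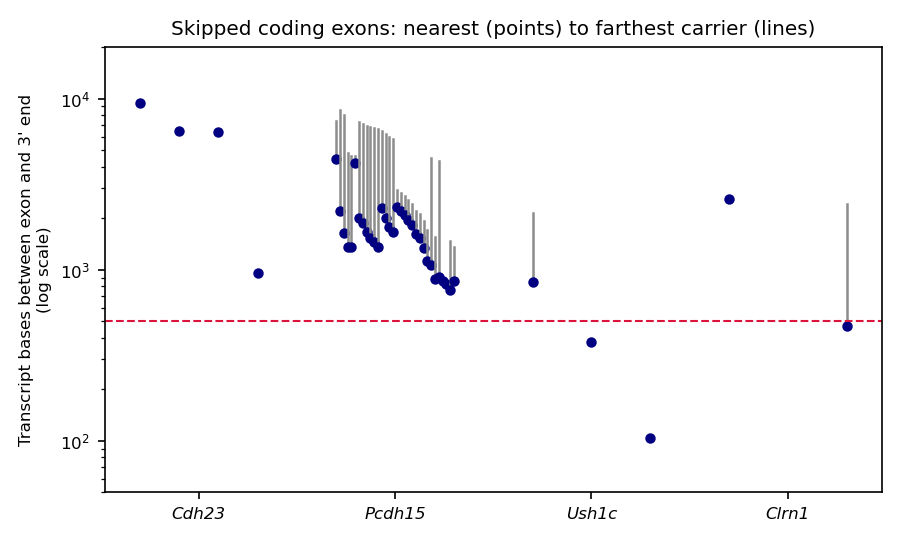
Distance in transcript bases, on a log scale, from each of the 41 skipped coding exons of 4 genes to the 3' end of the transcripts that carry it (point, nearest carrier; line, up to the farthest), ordered along the gene. The dashed line is at 500 bases, and only 2 exons of Ush1c and 1 of Clrn1 lie below it.

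The other genes of the hair bundle in the list used here were 22 genes of Usher, tip link, ankle link and stereocilium proteins. Their median span was 68.9 kb, their median coding length 2911.5 bases and their median number of coding exons 19.5, all between the medians of the 6 genes and of all genes. A short isoform occurred in 5 of the 22, skipped coding exons in 8, more than 1 stop codon in 5 and alternative 3' ends in 11. In the same order, the shares over protein-coding genes were 6.71%, 16.6%, 14.8% and 40.4%. Among genes with at least 2 transcripts of the kind counted, these shares are higher, as given above. Nothing particular to the 22 genes is read from these counts. Long coding sequences of the list were those of Myo15, an unconventional myosin, with 10536 bases, and of Ptprq, a phosphatase of the shaft connectors, with 6903. The shortest were those of Lhfpl5 with 660, Cib2 with 564 and Tmie with 462, all 3 of which belong to the mechanotransduction complex.

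The last 500 bases of the 6 genes held no same-strand exon of any other gene, an overlap found in 2.91% of the 21474 protein-coding genes with a complete coding transcript. No exon of a gene on the opposite strand overlapped them either, while 11.5% of the same 21474 genes had such an overlap. Of the genes that lay wholly beyond the outermost 3' end, the nearest was Psap, on the opposite strand, 150 bases from that of Cdh23. Vsir and Gm17455, both protein-coding and on the opposite strand, lay wholly within the span of Cdh23. Gm15398, a long intergenic non-coding RNA gene on the opposite strand, lay wholly within that of Pcdh15. Another, 9330111N05Rik, of 165977 bases, covered the 3' part of Adgrv1 with its span, the outermost 3' end included. No exon of these 4 genes overlapped an exon of Cdh23, Pcdh15 or Adgrv1.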

How the data were processed

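The data were 2 single-cell 3' libraries, 1 per group (GFP and Ikzf2, placed by their titles). The submitters' processing notes name Cell Ranger 2.0.2, without its role or settings. The file used was the authors' deposited gene annotation, on GRCm38 per the file headers, whose values are genome positions in bases and text, with 0 columns of values per sample. Models have no depth and no replicate error, so no test was made.

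Members and lists were chosen with earlier results of these data known. Coding lengths include the stop codon. A short isoform had under 50% of the longest complete coding length. Alternative 3' ends lay over 100 bases apart, and 3' windows were the last 500 exonic bases of a transcript. Named transcripts were the longest and the shortest complete coding one of each gene, those with the outermost and innermost 3' end, and carriers or skippers of alternative exons. The other transcripts of Adgrv1, and Psap, were named after their values were seen. Of the 22 pathway genes, the 3 longest and 3 shortest by coding length were named, with every gene longer than the longest member. Genes with an exon inside a member's span were named too. Some genes that this rule names are not reported here.

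Sequences came from GENCODE M21 transcripts with the same identifier, version and exons. These were found for 47 of 48 complete coding transcripts, and all 47 began with a start codon, ended with a stop codon and had 0 inner stop codons. Python 3.11.15, NumPy 2.4.6, Matplotlib 3.10.9 and edlib 1.3.9.post1 were used. The measures were tested on simulated data first, with the right answer for 200 of 200 genes each. The alternatives concerned coding completeness, the tag basic, support levels, thresholds, window sizes, biotypes and M21.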

Additional observations from a re-analysis of the deposited data

How the results depend on the processing

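The 45 distinct coding lengths of the 6 genes became 23 when only transcripts of support level 1 were used, which left none of Cdh23. Under the same setting the 30 distinct 3' ends became 16 and the 41 skipped coding exons became 19. The 2 genes with a short isoform became 4 when the limit was 75% of the longest coding sequence, with Ush1c and Clrn1 added. Transcripts of all biotypes gave 57 distinct 3' ends. Incomplete coding sequences, the tag basic, merged ends, 3' ends without a UTR left out, a gap of 500 bases between 3' ends, a limit of 25% for short isoforms, windows of 200 or 1000 bases, either strand and the M21 models moved these counts by less than 1.5 times. The restrictions to support level 1 and to annotated 3' UTRs were chosen after the data were seen. No paired analysis was possible because there was 1 library per group and no value of either library. For the same reason no replicate could be left out. All these are counts of annotated models, and sequencing depth limits none of them.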

Other observations

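Most protein-coding transcripts end near a polyadenylation signal, a short motif upstream of the cleavage site. The letters AATAAA or ATTAAA, searched on the transcript strand only, stood in the last 50 bases of 9 of the 27 distinct 3' ends of the 6 genes that follow a 3' UTR and had a sequence (33.3%). Over all protein-coding genes they stood at 19510 of 29688 ends (65.7%). Pcdh15 had them at 5 of 12 ends, among them the innermost at 74507600 and the outermost at 74649737. Adgrv1 had them at 2 of 4, the outermost at 81095068 and the innermost at 81579041, and Ush1c at 2 of 5, the pair at 46195350 and 46195357. Cdh23 had them at 0 of 2, Ush1g at 0 of 1 and Clrn1 at 0 of 3. A match is a description, and a missing one says only that these letters are not in that window.

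The remaining transcripts of the 6 genes had no coding biotype or were marked for nonsense-mediated decay. Cdh23 had 7 processed transcripts and 4 with a retained intron. Pcdh15 had 3 processed transcripts, 6 with a retained intron and 3 marked for decay. Adgrv1 had 5 with a retained intron, 1 processed and 1 marked for decay, and Ush1c had 1 of each kind. Clrn1 had 1 with a retained intron, and Ush1g had none.

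In M21, 82 of the 83 transcripts of the 6 genes had identical exons. M21 added Ush1c-209, with 2580 coding bases and no 3' UTR, and Adgrv1-214, with 957 coding bases, as many as Adgrv1-010. The 3' end of Adgrv1-004 stood at 81577426 here and at 81577436 in M21, with the same 1851 coding bases.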
